A study of Mus musculus with 9 samples.

Results

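The immediate early genes of the EGR and IER families were followed in MyC-CaP cells treated with recombinant asporin (ASPN), together with genes that act with them. The 9 genes, Egr1, Egr2, Egr3, Nr4a1, Srf, Nab2, Ier2, Ier3 and Ier5, were chosen by name out of the 15384 protein-coding genes of the count table, with their changes at 12 and 24 hours already known, and all 9 were found. Their values and calls are therefore given as a description. Calls rest on the adjusted p of fits over all tested genes. Neither the 9 genes nor the related lists, which were picked in the same way, were tested as a set. The MyC-CaP line was derived from a mouse prostate carcinoma, and ASPN is a small proteoglycan made by stromal fibroblasts. Cells were plated in wells and kept without serum and calcium for 6 to 12 hours, and RNA was taken either then (time 0) or once 100 ng/mL recombinant mouse ASPN had been present for 12 or 24 hours (3 libraries per time, 9 in all). The labels call the time 0 libraries ASPN-treated as well, and they were used as the starting level. All groups share the line and the starvation, and cells kept for 12 or 24 hours without ASPN were not analysed here, so the effect of ASPN and that of the hours in culture after starvation cannot be told apart in any of the 3 comparisons, that of 24 with 12 hours included. The same holds for fewer cells expressing a gene and less RNA per cell, which bulk RNA-Seq cannot tell apart.

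The libraries held 41881191 to 52993821 counts (median 44779129), and levels are given as CPM, the counts scaled to a common library size with TMM factors over the 9 libraries. The 24-hour libraries stood apart from the others in composition, with TMM factors of 0.899 to 0.914 against 1.04 to 1.07, and mitochondrially encoded mRNA made up 0.113% to 0.203% of their counts against 2.60% to 2.85% at time 0 and 12 hours. The part of this difference in the results was not tested beyond the scaling alternatives. Of 6 epithelial and prostate markers, Krt19 (79.5 to 145 CPM), Hoxb13 (67.6 to 104 CPM) and Krt8 (24.8 to 42.2 CPM) were present in every library, whereas Epcam (0 to 1 counts), Cdh1 (0 to 10 counts) and Krt18 (2 to 22 counts) were at or near 0. The summed level of the 6 markers was 173 to 206 CPM at time 0, 192 to 201 CPM at 12 hours and 255 to 292 CPM at 24 hours. Reads assigned to the mouse Myc gene, listed among the markers as the transgene target of the line, stood at 80.4 to 82.1 CPM at time 0, 87.4 to 95.3 CPM at 12 hours and 39.8 to 42 CPM at 24 hours. Whether any of them came from the transgene was not tested. Of the markers of other cells, Pdgfra stood at 8.55 to 13.8 CPM. The fibroblast gene Dcn (7 to 29 counts) and the leukocyte gene Cd68 (12 to 37 counts, 0.249 to 0.794 CPM) were low but present in every library. The fibroblast gene Col1a1 (0 to 8 counts), the T cell gene Cd3e (0 to 1 counts) and the endothelial genes Pecam1 (1 to 6 counts) and Cdh5 (0 to 1 counts) were at or near 0. Col1a2, Lum, Ptprc, Adgre1 and Kdr were absent from the count table.

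Immediate early genes are transcribed within minutes of a stimulus such as a growth factor, without new protein synthesis, because the transcription factors that switch them on are already in the cell. Serum response factor (SRF) binds the CArG box and works with ternary complex factors, which ERK phosphorylates, or with the actin-regulated MRTF cofactors. EGR proteins are zinc finger transcription factors that bind GC-rich sites, and NAB2, itself a product of EGR activity, binds EGR1 and restrains it. IER2, IER3 and IER5 are small proteins with separate roles: IER3 is an NF-kB and p53 target tied to survival and ERK signaling, and IER5 binds HSF1 and promotes the heat shock response.

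The sequence just upstream of 4 of the genes is shown because it holds the elements through which immediate early genes are commonly controlled. RefSeq promoter windows (250 bases before to 50 bases after the transcript start, mouse assembly GRCm38) matched 6 of the 9 genes, Egr2, Nr4a1, Srf, Nab2, Ier3 and Ier5. Egr2 has 5 such windows, and the one used starts at base 67537869, a RefSeq start that is also a GENCODE transcript start, so positions in Egr2 hold for that start alone (4 of the 5 windows, some of them overlapping, held a CArG box). Each line below reads 5′ to 3′ on the strand of the gene from base -150 to base -31 relative to the start (120 bases). Capitals mark a CArG box in Egr2, both CArG boxes, an EGR motif and a reversed TATA box motif in Srf, an EGR motif and AP-1-like elements in Nr4a1, and an NF-kB motif in Ier3. The TATA box motif of Srf lies on the strand opposite to the gene and so reads TTTATA here. The EGR motif of Nr4a1 and the NF-kB motif of Ier3 also lie on the opposite strand. The Egr2 stretch lies at chr10:67537719-67537838 on the plus strand, that of Nr4a1 at chr15:101266696-101266815 on the plus strand, that of Srf at chr17:46556193-46556312 on the minus strand, and that of Ier3 at chr17:35821563-35821682 on the plus strand.
Egr2: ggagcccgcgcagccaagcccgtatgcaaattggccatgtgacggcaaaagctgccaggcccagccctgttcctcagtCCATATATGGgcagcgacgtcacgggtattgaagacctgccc
Srf: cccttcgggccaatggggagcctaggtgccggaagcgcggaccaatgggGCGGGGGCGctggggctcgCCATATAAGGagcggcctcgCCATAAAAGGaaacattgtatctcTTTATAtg
Nr4a1: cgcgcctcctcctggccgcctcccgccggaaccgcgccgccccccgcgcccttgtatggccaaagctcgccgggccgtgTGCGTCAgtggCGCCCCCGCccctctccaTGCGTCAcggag
Ier3: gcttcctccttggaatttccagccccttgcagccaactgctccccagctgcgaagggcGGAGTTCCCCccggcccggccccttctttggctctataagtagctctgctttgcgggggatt

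Motifs were searched on both strands of the whole windows. The CArG box, the binding site of SRF, was matched in Egr2 at -72 to -63 and in Srf at -82 to -73 and -62 to -53, and it occurred in 1.63% of the 32851 RefSeq windows. The EGR motif (GCGNGGGCG) was matched in Srf at -101 to -93 and in Nr4a1 at -60 to -52, against 5.55% of all windows. The NF-kB motif was matched in Ier3 at -92 to -83 and in Nr4a1 at -3 to 6, against 8.46% of all windows. The AP-1-like element TGCGTCA, which was chosen after the Nr4a1 sequence had been read, occurred there 4 times, beginning at -235, -215, -71 and -42, and was found in 2.12% of all windows. The TATA box (TATAAA) was matched in Srf only on the strand opposite to the gene, at -38 to -33 (13.6% of all windows on either strand). The cyclic AMP response element (TGACGTCA, 1.79% of all windows) was matched in none of the 6, and the windows of Nab2 and Ier5 held no match to any of these motifs. A match describes the letters only and does not show binding.

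**Figure D1:**
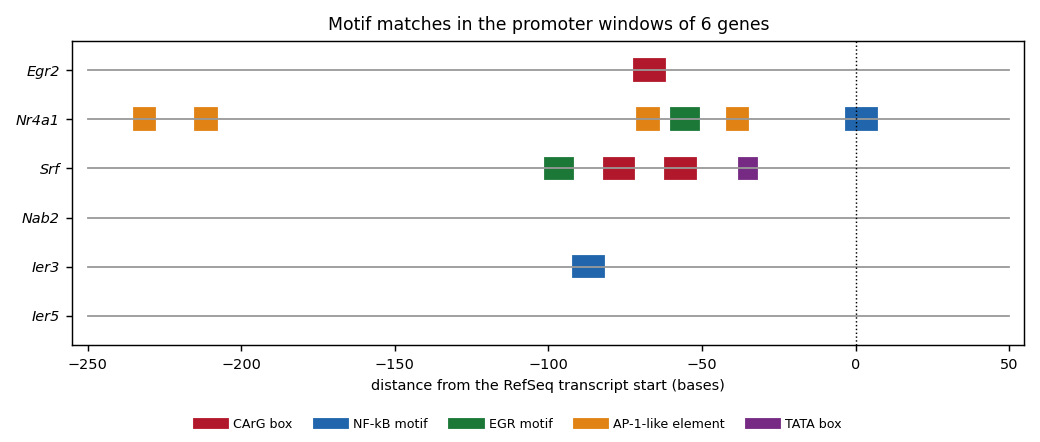
Motif matches in the RefSeq promoter windows of 6 genes. Each horizontal line is 1 window, the x axis gives the distance from the transcript start in bases, and colored boxes are matches on either strand. The CArG boxes of Egr2 and Srf, the EGR motifs of Srf and Nr4a1 and the NF-kB motif of Ier3 all lie between -101 and -52.

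Egr1, the founding EGR factor and a widely used readout of ERK activity (chromosome 18, 34859823-34864984, plus strand), was low at the start and high at 24 hours. At time 0 its level was 6.17, 7.29 and 7.58 CPM in replicates 1 to 3. At 12 hours the libraries held 9.41, 11.1 and 10.4 CPM. At 24 hours they held 151, 141 and 135 CPM, from 6199 to 6816 counts per library. The groups did not overlap at any pair of times, and most of the increase lay between 12 and 24 hours. The log2 fold change was 0.56 (SE 0.10, 95% interval 0.35 to 0.77) at 12 hours, which is 1.47-fold and just below the 1.5-fold needed for a call. A gene was called when its Benjamini-Hochberg adjusted p in edgeR's quasi-likelihood test was at most 0.05 and its fold change at least 1.5. Egr1 at 12 hours passed both without time 0 replicate 3 or without 12-hour replicate 1 (log2 fold change 0.62 in each case). At 24 hours the log2 fold change was 4.35 against time 0 (SE 0.07, 95% interval 4.19 to 4.51), a 20.4-fold higher level, and 3.81 against 12 hours (SE 0.07, 95% interval 3.67 to 3.95), a 14.0-fold higher level. This was rank 14 of 11444 tested genes by log2 fold change against time 0 and rank 1 of 11394 against 12 hours. Over 20 alternative fits each, the rank against time 0 ran from 6 to 54, and that against 12 hours was 1 in 16 fits and at worst 84, the worst placing in both being with no filter on low counts.

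Egr2, an EGR factor best known from myelinating glia and lymphocytes (chromosome 10, 67535475-67542188, plus strand), rose through both intervals from a very low level. It had 9, 22 and 15 counts at time 0 (0.187, 0.472 and 0.275 CPM). It had 43, 33 and 24 counts at 12 hours (0.941, 0.710 and 0.549 CPM) and 77, 57 and 53 counts at 24 hours (1.88, 1.18 and 1.12 CPM). The 3 groups followed each other without overlap, but the spread within each was wide, with a CV of 46.8% at time 0, 26.9% at 12 hours and 30.4% at 24 hours. The log2 fold change was 1.25 (SE 0.36, 95% interval 0.49 to 2.01) at 12 hours, 2.16 (SE 0.36) at 24 hours, and 0.93 (SE 0.29) from 12 to 24 hours. The call at 12 hours did not hold in every fit. It was lost without time 0 replicate 1 (log2 fold change 1.00), without time 0 replicate 3 (1.16), without 12-hour replicate 1 (1.03) and without 12-hour replicate 2 (1.27). The call was also lost with a replicate block or with all 9 libraries in one fit (1.24 in each case). That from 12 to 24 hours was lost without 12-hour replicate 3 (0.77) and without 24-hour replicate 1 (0.66), and both calls were lost with glmTreat, which tests against 1.5-fold itself. Against time 0 the gene passed the filter on low counts only through the later group, where it was higher.

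Egr3, another EGR factor (chromosome 14, 70077203-70082614, plus strand), was at or near the floor of 3 counts at all times. Its libraries held 3, 3 and 0 counts at time 0, 5, 3 and 1 counts at 12 hours, and 3, 2 and 2 counts at 24 hours. It did not pass the filter in any comparison, and no fold change is given. A change was not detectable at this depth. Within the family, then, Egr1 was the abundant member at every time, with 1.56 ± 0.17, 2.30 ± 0.20 and 31.8 ± 1.8 CPM per kb of exon (SD, n = 3), against 0.0916 ± 0.043, 0.216 ± 0.058 and 0.410 ± 0.12 CPM per kb for Egr2.

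NAB2, the corepressor of EGR1, was called higher at 24 hours, as Egr1 was, and by a smaller fold. The Nab2 gene (chromosome 10, 127660918-127668568, minus strand) was at 16.1, 17.8 and 16.5 CPM at time 0. It was at 17.9, 18.4 and 19.0 CPM at 12 hours and at 27.7, 35.9 and 29.5 CPM at 24 hours. All 24-hour libraries were above all others, while the 12-hour values lay just above the highest of time 0. On the log2 scale the change was 0.14 (SE 0.06, 95% interval 0.01 to 0.28, not called) at 12 hours, 0.89 (SE 0.09, 95% interval 0.70 to 1.09) at 24 hours, and 0.77 (SE 0.08) from 12 to 24 hours. The last fell to 0.55 and was not called when libraries were scaled to total counts. The level of Egr1 over that of Nab2, both per kb of exon, was 0.274 ± 0.026 at time 0, 0.367 ± 0.028 at 12 hours and 3.06 ± 0.50 at 24 hours (SD, n = 3), so Egr1 mRNA went from the scarcer to the more abundant of the pair. Nab1, the related corepressor, had 0 to 6 counts per library. Nab2 overlaps Nemp1 by 1668 bases, Gm16229 by 1646 bases and Stat6 by 40 bases on the other strand, and whether reads were counted by strand is not given in the sources used here. Gm16229 was not analysed here. Nemp1 and Stat6 were not called in any comparison. At 24 hours their log2 fold changes were 0.19 for Nemp1 (SE 0.11, adjusted p = 0.129) and 0.01 for Stat6 (SE 0.06, adjusted p = 0.885, edgeR quasi-likelihood test). From 12 to 24 hours Nemp1 was at 0.24 (SE 0.08, adjusted p = 0.0196, same test), in the direction of Nab2 but below 1.5-fold, and Stat6 at -0.07 (SE 0.06, adjusted p = 0.263).

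Nr4a1, which encodes the orphan nuclear receptor NUR77 (chromosome 15, 101254269-101274795, plus strand), had the same order of events with no change visible at 12 hours. Its level was 8.20, 10.2 and 9.09 CPM at time 0 and 8.99, 9.64 and 9.62 CPM at 12 hours. At 24 hours it was 17.7, 21.9 and 19.8 CPM. The first 2 groups overlapped, and all 24-hour libraries lay above them. The log2 fold change was 0.04 (SE 0.09, 95% interval -0.15 to 0.24) at 12 hours, 1.12 (SE 0.10, 95% interval 0.90 to 1.33) at 24 hours, and 1.09 (SE 0.08) from 12 to 24 hours.

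Srf, the factor that binds the CArG boxes shown for Egr2 and for Srf itself (chromosome 17, 46548329-46556175, minus strand), was the member whose replicates differed most at 24 hours among those above 10 CPM. It was at 39.2, 37.1 and 38.6 CPM at time 0. At 12 hours it was at 44.3, 51.6 and 48.0 CPM, and at 24 hours at 34.0, 57.7 and 41.8 CPM. The 12-hour libraries lay above those of time 0, but the 24-hour libraries ran from below all to above all of the others. Its change on the log2 scale was 0.33 (SE 0.05, 95% interval 0.22 to 0.44) at 12 hours, below 1.5-fold, 0.22 (SE 0.13, 95% interval -0.06 to 0.51) at 24 hours, and -0.08 (SE 0.13) from 12 to 24 hours, and none was called. The direction at 24 hours depended on the libraries: it was -0.01 without 24-hour replicate 2 against time 0 and 0.07 without 24-hour replicate 1 against 12 hours. The CV at 24 hours was 27.1%, which only 10 of the 8200 genes at 10 CPM or more exceeded (median 4.49%), whereas at time 0 it was 2.84%. The whole of Srf (7847 bases) lies within the span of the annotated gene Gm26904 on the other strand, whose counts were not analysed here.

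**Figure D2:**
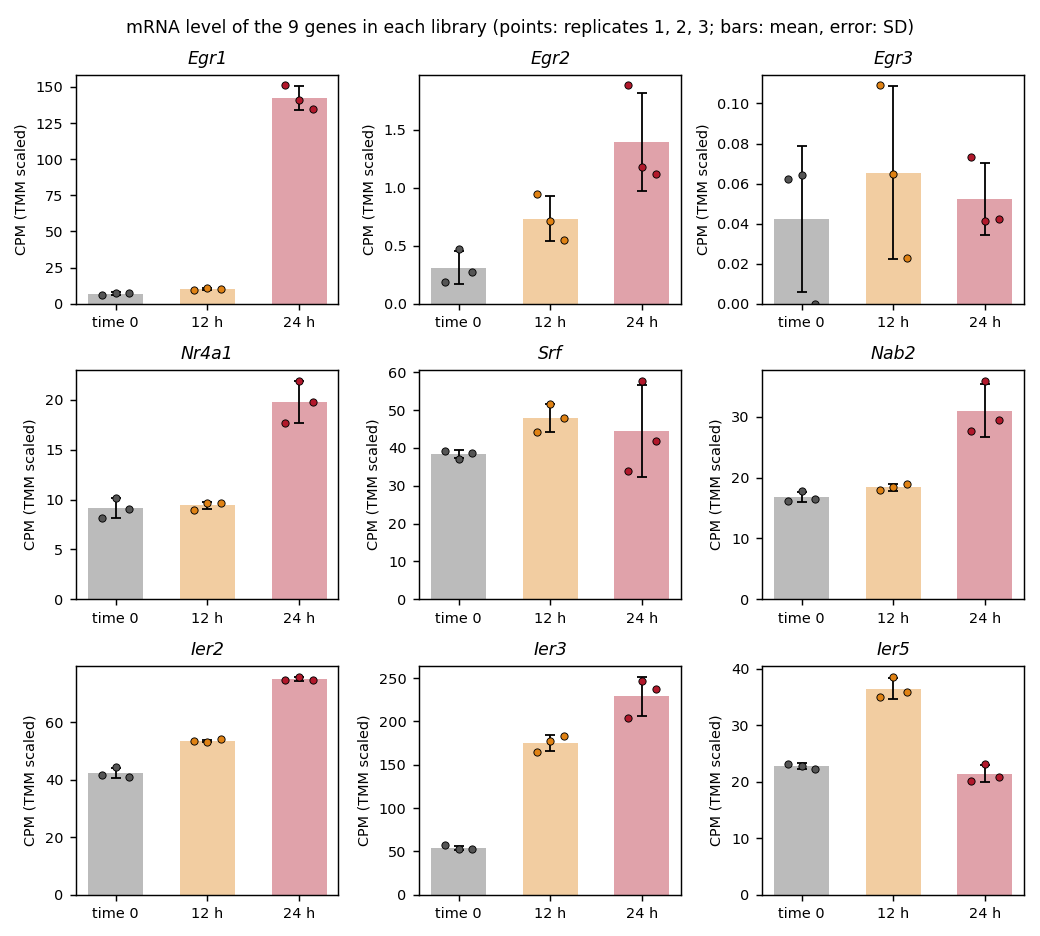
TMM-scaled CPM (y axis, linear and starting at 0, with its own range per gene) of the 9 genes at time 0, 12 and 24 hours (x axis). Points are replicates 1 to 3 from left to right, bars the mean and error bars the SD of 3 libraries. Egr1 is near the axis until it reaches 135 to 151 CPM at 24 hours, Ier5 is highest at 12 hours, and the 24-hour values of Srf spread from 34.0 to 57.7 CPM.

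The 3 IER genes among the members took different courses. Ier3 (chromosome 17, 35821684-35822923, plus strand), the survival-linked member, rose early. It was at 57.0, 53.1 and 52.3 CPM at time 0. At 12 hours it was at 165, 178 and 183 CPM, and at 24 hours at 204, 247 and 237 CPM. The groups did not overlap, and the step in the first 12 hours was the larger one. This was a log2 fold change of 1.70 (SE 0.04, 95% interval 1.61 to 1.79) at 12 hours, a 3.25-fold higher level, and 2.09 (SE 0.07, 95% interval 1.94 to 2.23) at 24 hours, a 4.25-fold higher level. From 12 to 24 hours it was 0.41 (SE 0.06), below the 1.5-fold line, and it ran from 0.16 to 0.43 over 14 alternative fits.

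Ier2, whose product is a nuclear protein that regulates transcription (chromosome 8, 84661331-84662854, minus strand), was higher at each later time. The libraries held 41.7, 44.4 and 41.1 CPM at time 0. They held 53.4, 53.2 and 54.1 CPM at 12 hours and 74.7, 76.0 and 74.7 CPM at 24 hours. No groups overlapped, and replicates were tight, with a CV of 0.920% at 12 hours and 0.941% at 24 hours. In log2 units the change was 0.34 (SE 0.04) at 12 hours and 0.51 (SE 0.04) from 12 to 24 hours, both below the 1.5-fold line, and the change from time 0 to 24 hours passed it at 0.83 (SE 0.05, 95% interval 0.73 to 0.93). Which interval held the larger step depended on the scaling, since under total counts the steps were 0.32 and 0.29.

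Ier5, the HSF1 partner (chromosome 1, 155096361-155099636, minus strand), was the only member with a peak at 12 hours that was called in both directions. It was at 23.2, 22.8 and 22.3 CPM at time 0. At 12 hours it was at 35.0, 38.6 and 35.8 CPM, and at 24 hours at 20.2, 23.2 and 20.9 CPM. The 12-hour libraries lay above all others, and those of 24 hours overlapped time 0. The log2 fold change was 0.68 (SE 0.05, 95% interval 0.58 to 0.79) at 12 hours, 1.61-fold, then -0.74 (SE 0.06, 95% interval -0.88 to -0.61) from 12 to 24 hours. Against time 0 it was -0.08 (SE 0.07, 95% interval -0.22 to 0.06) at 24 hours.

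**Figure D3:**
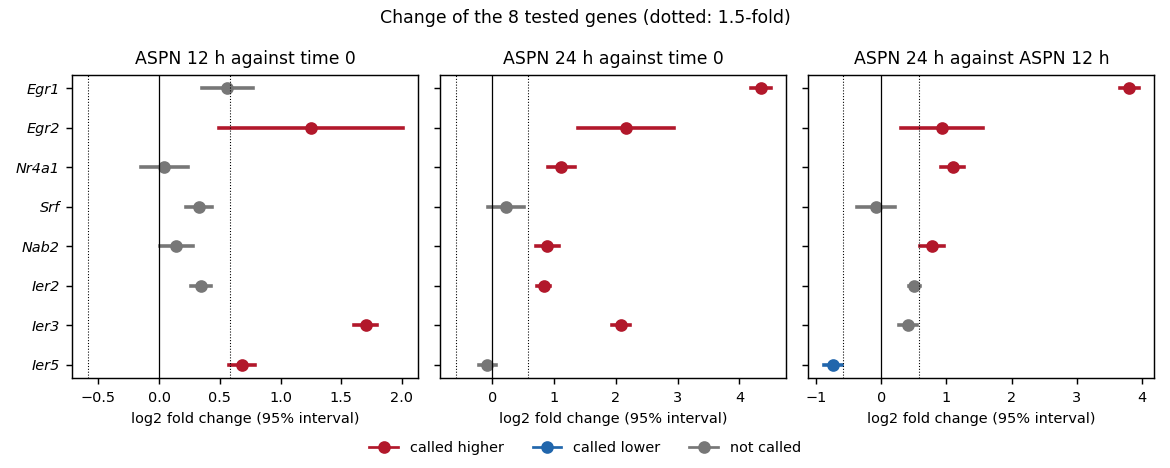
log2 fold change (x axis) of the 8 genes that passed the filter (y axis) in 3 comparisons, with points for the estimate and lines for its 95% interval. Dotted lines mark 1.5-fold, and red, blue and gray mark genes called higher, called lower and not called. Egr1 reaches 4.35 at 24 hours, Ier3 is at 1.70 by 12 hours, and Ier5 alone is called lower, at -0.74 from 12 to 24 hours.

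In all, 8 of the 9 genes were tested, and the median of their log2 fold changes was 0.45 at 12 hours, 1.00 at 24 hours and 0.64 from 12 to 24 hours, against -0.005, -0.016 and 0.004 over all tested genes. Scaling to total counts moved the last 2 medians of all genes to -0.24 and -0.22 and the members with them, with Egr1 at 4.13, Srf at 0.00 and Ier5 at -0.30 at 24 hours. It also changed the split of all called genes, from 1374 higher and 1924 lower to 698 higher and 3008 lower at 24 hours, and from 1184 higher and 1740 lower to 484 higher and 2830 lower from 12 to 24 hours. At 12 hours Egr2, Ier3 and Ier5 were called higher (3 genes, against 1.5% of all tested genes) and 0 were called lower (0.0964% of all). At 24 hours Egr1, Egr2, Nr4a1, Nab2, Ier2 and Ier3 were called higher (6 genes, against 12.0% of all) and 0 lower (16.8% of all). From 12 to 24 hours Egr1, Egr2, Nr4a1 and Nab2 were called higher (4 genes, against 10.4% of all) and Ier5 lower (1 gene, against 15.3% of all). Groups did not overlap for 7 genes at 12 hours (27.0% of all genes), for 6 at 24 hours (73.9%), and for 7 between 12 and 24 hours (73.9%). The comparisons with time 0 share its 3 libraries, and the genes were picked with these changes in view, so nothing is read from the counts.

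**Figure D4:**
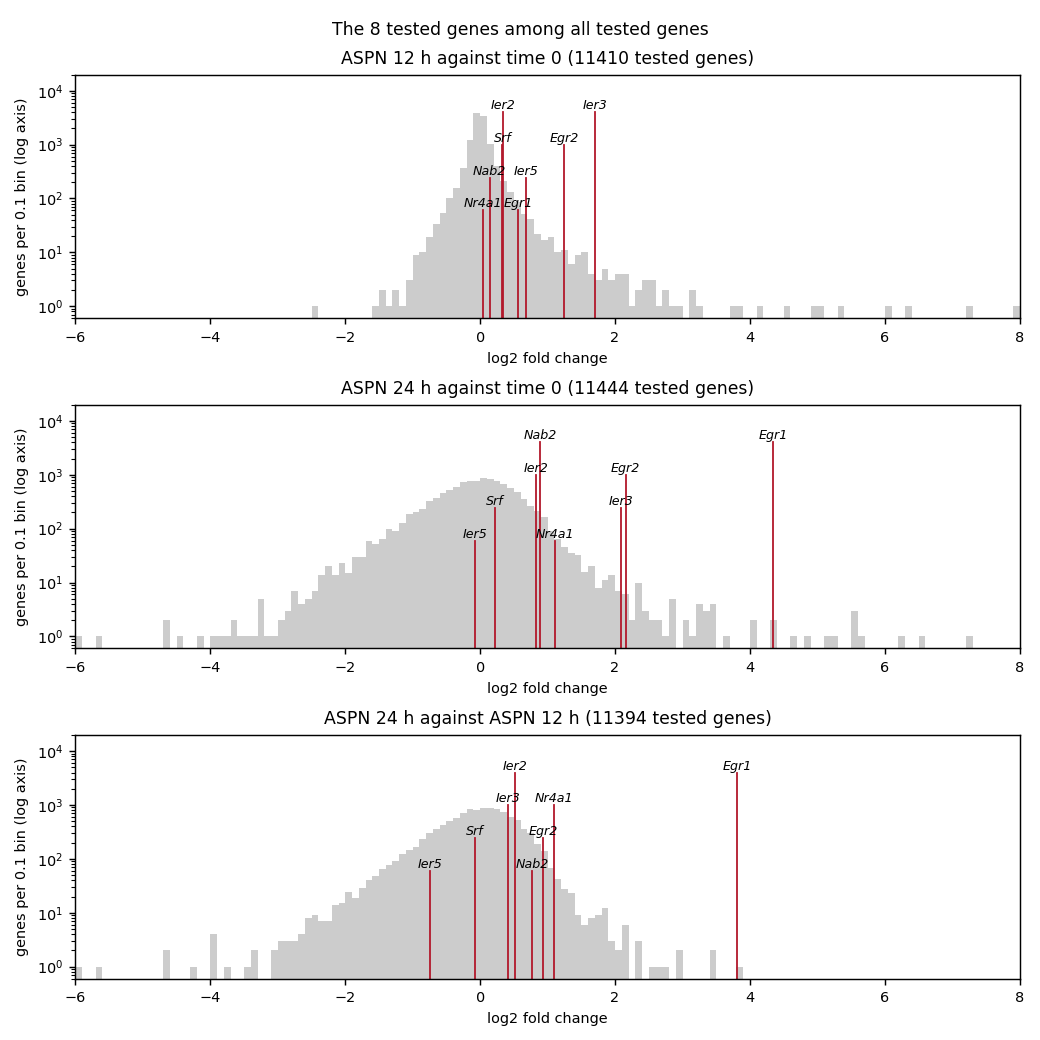
Number of tested genes (y axis, log scale) per 0.1 of log2 fold change (x axis) in each comparison, with red lines at the 8 tested genes. Line heights only separate the names, and genes past the ends of the axis are not drawn. Egr1 lies at 3.81 in the lowest panel, at the far right of 11394 genes, and at 0.56 in the top panel.

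Per kb of exon, the order of levels was Ier3, Ier2, Srf, Ier5, Nab2, Nr4a1, Egr1, Egr2 and Egr3 at both time 0 and 12 hours, with no overlap between neighbors in either group. At 24 hours Egr1 moved from rank 7 to rank 3, behind Ier3 (203 ± 20 CPM per kb) and Ier2 (49.4 ± 0.46 CPM per kb; SD, n = 3). It was followed by Srf (15.4 ± 4.2 CPM per kb), Nab2 (10.5 ± 1.5 CPM per kb), Ier5 (6.55 ± 0.48 CPM per kb) and Nr4a1 (5.64 ± 0.61 CPM per kb). The ranges of Srf and Nab2 overlapped at that time, as did those of Ier5 and Nr4a1, although Srf lay above Nab2 and Ier5 above Nr4a1 in each of the 3 libraries taken by itself.

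The genes whose log2 CPM ran most like each member over the 9 libraries were found by Pearson's r among the 10400 other genes with enough counts (10401 for Egr2), as a description. Since 3 times make up the 9 points and the 24-hour libraries stand apart, high values are common. For Egr1 the closest were Ttc9c, Nars and Ndel1 (r = 0.998 each), and 1726 genes reached r = 0.95. The closest to Nr4a1 was Stard3nl (r = 0.998), to Nab2 Med15 (r = 0.994) and to Ier2 Nupr1 (r = 0.997). Ier3 ran closest to Fgd3 (r = 0.996), with 75 genes at 0.95 or above. Ier5, with its peak at 12 hours, ran closest to Il6st (r = 0.987), the signal-transducing receptor of the IL-6 family, and to Angptl4 (r = 0.983) and Irf1 (r = 0.982), and only 18 genes reached 0.95. Egr2 ran closest to Fgfr1op (r = 0.985, 8 genes at 0.95 or above), and for Srf no gene reached that value (Sun2, r = 0.949).

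Other immediate early genes were counted beside the shares of all tested genes given above, which were themselves far larger at 24 than at 12 hours, and whether a list differed from all genes was not tested. Of 14 other transcription factors tested, 2 were called higher at 12 hours, Atf3 (log2 fold change 0.77, SE 0.06) and Junb (0.74, SE 0.04). At 24 hours 7 were called higher and 3 lower. The AP-1 gene Fos went from 19.6 ± 0.70 CPM at time 0 through 25.4 ± 0.69 CPM at 12 hours to 193 ± 5.5 CPM at 24 hours (SD, n = 3), which is 3.31 on the log2 scale with SE 0.05. Fosb (2.33, SE 0.17) and Atf3 (1.99, SE 0.10) rose as well, and Klf2 fell by 2.72 (SE 0.11). The median of the list was 0.26 at 12 hours, 0.77 at 24 hours and 0.16 from 12 to 24 hours, with 5 called higher and 3 lower in the last. Of 14 immediate early effectors, 3 were called higher at 12 hours, Ccn1 (2.01, SE 0.06), Rhob (0.67, SE 0.04) and Phlda1 (0.62, SE 0.06). At 24 hours 8 were called higher and 3 lower, led by the matricellular gene Ccn1 (2.73, SE 0.06), the ERK phosphatase gene Dusp1 (2.31, SE 0.06), Plk3 (1.86, SE 0.06) and Gadd45b (1.43, SE 0.06). The lower ones were Rhob, Sgk1 and Per1, named after their values were seen, and Rhob, higher at 12 hours, fell by 1.80 (SE 0.05) from 12 to 24 hours. Their median was 0.44, 0.62 and 0.15 in the 3 comparisons, with 6 called higher and 3 lower from 12 to 24 hours. Under total-count scaling the effectors called at 24 hours were 5 higher and 4 lower (median 0.39) and the transcription factors 6 higher and 3 lower (median 0.55). The medians from 12 to 24 hours turned to -0.07 for the transcription factors and -0.08 for the effectors.

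Genes tied to the members' known partners and targets were counted in the same way. Of all tested genes, 12.0% were called higher and 16.8% lower at 24 hours, and 10.4% and 15.3% from 12 to 24 hours. At 12 hours only 1.5% were called higher and 0.0964% lower, so 0 calls there set a short list little apart from all genes. Of 8 SRF cofactors and regulators, 0 were called at 12 hours (median 0.05), and at 24 hours Fhl2 was called higher (0.89, SE 0.04) while Mrtfa (-0.71, SE 0.07), Elk3 (-0.63, SE 0.14) and Mrtfb (-0.63, SE 0.06) were called lower (median -0.54). The same 4 genes were called from 12 to 24 hours (median -0.51). The lower calls of this list were lost, to 0 in both comparisons, with the length and GC correction, where its median was -0.37 and -0.44 and 2 and 1 were called higher. Under total-count scaling 5 were called lower in both comparisons (median -0.76 and -0.73). Of 18 actin and cytoskeleton genes known as SRF targets, 0 were called at 12 hours (median 0.25), and 13 were called higher and 0 lower at 24 hours (median 0.99), among them Actg1 (1.60, SE 0.06), Acta1 (1.42, SE 0.26), Tagln2 (1.40, SE 0.05) and Zyx (1.35, SE 0.06). From 12 to 24 hours 11 of them were called higher (median 0.76). Under total-count scaling 10 and 7 were called higher in these comparisons. Of 9 genes of the heat shock response, Hsf1 itself and 8 heat shock protein and co-chaperone genes, 0 were called at 12 hours (median 0.00), when Ier5 was highest. At 24 hours 3 were called higher, Dnajb1 (0.70, SE 0.06) and Hspa8 (0.64, SE 0.05) among them, and 2 lower, Hspa1a (-1.70, SE 0.08) and Hspa1b (-1.70, SE 0.07), a near-identical pair that can share reads (median 0.08). From 12 to 24 hours 2 were called higher and 2 lower (median 0.10). With total-count scaling none of the 9 was called higher at 24 hours (0, with 3 lower and a median of -0.14), and from 12 to 24 hours 0 were called higher and 3 lower (median -0.13).

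The NF-kB motif was matched in Ier3 and in Nr4a1, of which Nr4a1 was not called at 12 hours (0.04) and Ier3 was (1.70). Feedback genes of the NF-kB pathway were counted too, as a list picked with its changes known. Of 7 tested, 6 were called higher at 12 hours (median 2.23, against 1.5% of all tested genes called higher), with Nfkbiz at 3.30 (SE 0.06), Nfkbie at 2.74 (SE 0.15), Relb at 2.45 (SE 0.08) and Nfkbia at 2.23 (SE 0.03). At 24 hours 6 were called higher (median 1.66, against 12.0% of all). From 12 to 24 hours 0 were called higher (10.4% of all) and 3 lower (15.3% of all), namely Nfkbiz (-1.62, SE 0.05), Nfkbie (-0.91, SE 0.10) and Tnfaip3 (-0.72, SE 0.05), with a median of -0.42. In that interval 4 were called lower under total-count scaling (median -0.64) and 4 with the length and GC correction (median -0.60). Ier3 was at 0.41 over the same interval (0.16 to 0.43 over 14 alternative fits).

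**Figure D5:**
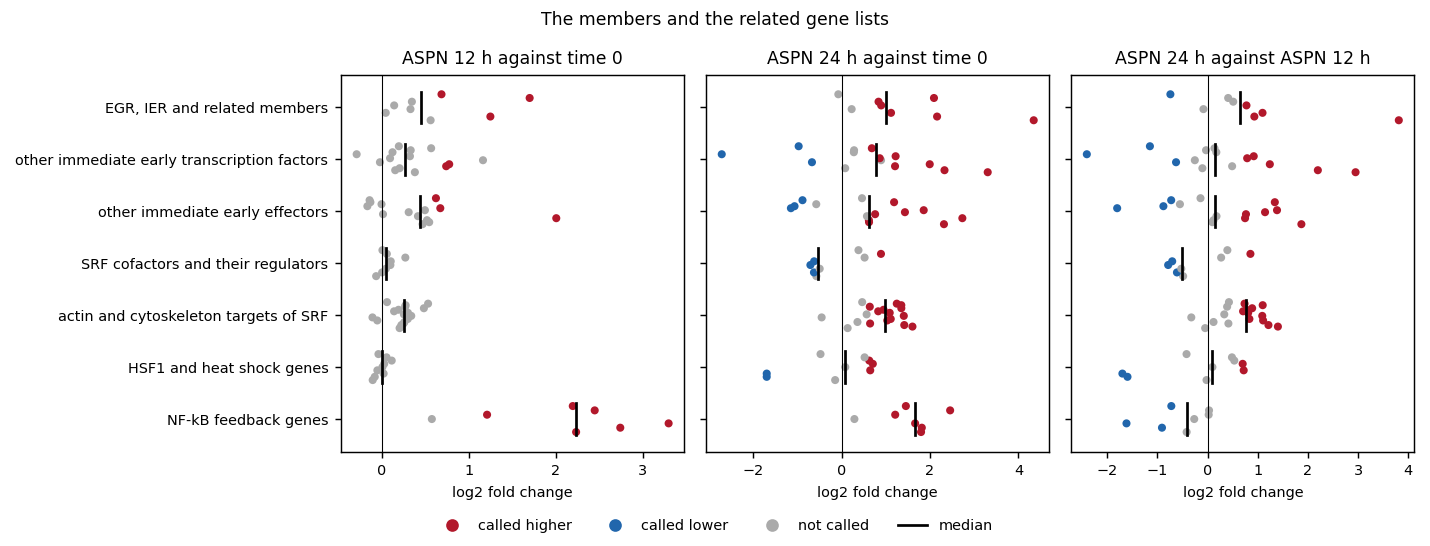
log2 fold change (x axis) of every tested gene of the 9 members and of the 6 related lists (rows) in 3 comparisons. Points are genes, with red called higher, blue called lower and gray not called, and black bars are medians. At 12 hours the NF-kB feedback genes have a median of 2.23 and the members one of 0.45, and at 24 hours the members have one of 1.00.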

How the data were processed

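RNA-Seq gene counts of 9 MyC-CaP libraries were used, 3 each at time 0, 12 and 24 hours. Per the labels and the study's methods, the authors prepared TruSeq mRNA libraries for paired-end sequencing, trimmed the reads with cutadapt, aligned them with STAR to GRCm38.p6 with GENCODE vM24 and counted with featureCounts. The deposited values are raw counts per gene, not normalized, and 0 columns of the table were left unused. Tool names and builds follow the submitters' processing notes. Gene positions are those of the table, and exon lengths and overlaps come from GENCODE M21 of the same assembly, in which 15374 of 15384 genes were found (99.9%).

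The members and all lists were chosen with earlier results of these data known. Each of 3 comparisons used the 3 + 3 libraries concerned, filterByExpr, TMM factors and edgeR's quasi-likelihood test, with p-values adjusted by Benjamini-Hochberg over all tested genes (R 4.3.3, edgeR 4.0.16, limma 3.58.1, DESeq2 1.42.0). Genes were called at an adjusted p of at most 0.05 and a fold change of at least 1.5. CPM is scaled by TMM over the 9 libraries, errors are the SD over 3 libraries for levels and the SE for log2 fold changes, and a prior count of 2 was used for log2 CPM in correlations. The labels name biological replicates from wells plated in triplicate, and nothing more is said of separate cultures, so p-values measure the spread between these wells only. All 9 members are named. Of each related list, at most the 4 genes with the largest change among those called in a comparison are named. The effectors called lower, Rhob, Sgk1 and Per1, are an exception and were named in addition, after their values were seen. For each tested member the genes most like it are named. The fits were tested on simulated data. Alternatives were RLE, upper-quartile and total-count scaling, no filter, at least 10 counts in every library, DESeq2, limma-voom, glmTreat, the adjusted p alone, all 9 libraries in one fit, a replicate block and leaving out each library. A length and GC correction (loess span 0.3), the same with the block, and scaling without mitochondrial genes were added after the data were seen. Some markers of the fixed list are not reported here, and their levels are not in the summed marker level. Other libraries of the series and genes absent from the table were not analysed here.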

Additional observations from a re-analysis of the deposited data

Results flagged for a closer look

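For 5 genes the change relative to time 0 differed between 12 and 24 hours by at least 1.5-fold, as measured by the direct fit of 24 against 12 hours and called there. The difference in log2 fold change was 3.81 for Egr1, 0.93 for Egr2, 1.09 for Nr4a1, 0.77 for Nab2 and -0.74 for Ier5. All 3 libraries of 24 hours lay above those of 12 hours for the first 4 genes and below them for Ier5. The genes were picked with these changes known, so the values are a description. Ier2 (0.51) and Ier3 (0.41) also differed without overlap between the groups but stayed below 1.5-fold, and with the adjusted p alone 7 members were called.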

How the results depend on the processing

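Over 14 alternatives and 6 left-out libraries per comparison, 456 of 478 values of the members kept their direction and their side of the threshold, 12 lost a call, 7 gained one and 3 changed sign. The sign changes were Nr4a1 at 12 hours (-0.028 to 0.125 with a library left out, lowest without time 0 replicate 1), Srf at 24 hours (-0.0076 to 0.381, lowest without 24-hour replicate 2) and Srf from 12 to 24 hours (-0.314 to 0.073, highest without 24-hour replicate 1). The number of members called at 12 hours was 3, 1 with glmTreat (Ier3), 6 with the adjusted p alone, and 2 to 3 with a library left out. It was 6 at 24 hours (5 to 6 over alternatives, 6 with any library left out) and 5 from 12 to 24 hours (4 to 7, and 4 to 5). Over all genes, 182 were called at 12 hours (88 with glmTreat, 1178 with the adjusted p alone, 148 to 198 with a library left out), 3298 at 24 hours (2101, 8119, and 3248 to 3312) and 2924 from 12 to 24 hours (1768, 8124, and 2871 to 3003). glmTreat tests against 1.5-fold itself, and the adjusted p alone drops the fold limit. Scaling to total counts moved the median of all genes to -0.24 at 24 hours and -0.22 from 12 to 24 hours, and Egr1 at 24 hours to 4.13. At least 10 counts in every library left no value for Egr2 against time 0. Same-numbered libraries did not deviate together (r of their deviations from -0.10 to 0.06 over 3 numbers and 3 comparisons), so the numbers were not taken as pairs. With the number as a replicate block the log2 fold change of Egr2 at 12 hours was 1.24 and no longer called, and no other call of a member changed. At this depth Egr3 and Nab1 were too low for a fold change, and Egr2 rested on 9 to 77 counts per library.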
